A study of Mus musculus with 4 samples.

Results

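The 10 transcripts described here come from the mitochondrial genome of mouse cortical cells labelled as oligodendrocytes, with and without Zdhhc5, which encodes a palmitoyltransferase. They are every gene of the deposited table whose name begins with mt-, 10 of 6940 listed genes. The mouse annotation used here places 37 genes on the mitochondrial chromosome, of which 2 are ribosomal RNAs, 22 are transfer RNAs and 13 code for proteins. The table lists 1 ribosomal RNA, 9 of the protein-coding genes and 0 transfer RNAs. The 9 are called mRNAs below, counted by gene, although genes that overlap on 1 strand may share an RNA. The other 27 genes were not analysed here.

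The mitochondrial genome is a small circle that codes for subunits of the respiratory chain and ATP synthase, and for the RNAs of the ribosome that translates them. It is transcribed from promoters on each strand into long precursors, which are cut mostly at the transfer RNAs into separate RNAs. All other proteins of the organelle, including those that transcribe, process and translate these RNAs, come from nuclear genes. Maturing oligodendrocytes rely on this organelle for the energy that the synthesis of myelin lipid and protein takes.

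RNA was sequenced from 4 libraries. The cKO cells were Olig1-cre/+;Zdhhc5 fl/fl and the control cells were Zdhhc5 fl/fl, with 2 libraries each. Both came from cortices of C57BL/6 pups of postnatal day 5 and were captured on antibody-coated dishes, first against GalC and then against O4. They grew for 6 days and were collected 24 h after they were given T3, a thyroid hormone that drives differentiation, at 40 ng/mL. Markers of astrocytes and other cell types were read in all libraries as well, with means of 555415 normalised counts in cKO cells and 351796 in control cells for the astrocyte filament gene Gfap, so the values cannot be ascribed to oligodendrocytes alone. Cre sits in the Olig1 locus of cKO cells only, so the loss of Zdhhc5 and any effect of Cre or of that locus cannot be told apart. Zdhhc5 itself was not analysed here, so the genotype labels were not checked by its level. Whether libraries of 1 genotype stem from separate animals or cultures is not in the labels, so p-values rest on the spread between these libraries, which may be technical. In limma that spread is pooled over the listed genes, so it is only in part that of the gene itself.

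The table gives normalised read counts, that is, reads divided by 1 size factor per library. The listed genes held 20068016 and 13672254 reads in the cKO libraries and 17077509 and 16773675 reads in the control libraries. These are sums over the listed genes, not the depth of the libraries. Every listed gene had been called different between genotypes by the authors in these libraries (largest adjusted p 0.0499 in the authors' deposited table), so a call here is not independent evidence. Of the 6940 listed genes, 100% also passed limma at an adjusted p under 0.05, with 46.7% higher and 53.3% lower in cKO cells, and their median log2 fold change was −0.22. With a trend on the genes' GC content removed, 39.7% were called higher and 30.4% lower.

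The first sequence shown is the 3′ end of mt-Rnr1, the 12S ribosomal RNA of the small subunit of the mitochondrial ribosome, because it is the only ribosomal RNA listed and the only member that was higher in cKO cells. Capitals mark a stretch conserved among small-subunit ribosomal RNAs. It lies on the plus strand at chrM:905-1024. All sequences are from GENCODE vM21 transcripts on GRCm38 and run 5′ to 3′.
mt-Rnr1: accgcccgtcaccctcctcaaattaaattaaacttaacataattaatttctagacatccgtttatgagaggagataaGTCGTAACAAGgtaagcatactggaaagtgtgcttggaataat

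The next sequences show how tightly the genes are packed, since reads in an overlap may match more than 1 member. On opposite strands that holds only if the counting ignored the strand. Capitals mark the shared bases. The end of mt-Nd4l (chrM:10134-10173, plus strand) runs into the start of mt-Nd4 (chrM:10167-10206, plus strand) over 7 bases. The ends of mt-Nd5 (chrM:13526-13565, plus strand) and mt-Nd6 (chrM:13552-13591, minus strand) meet over 14 bases on opposite strands.
mt-Nd4l: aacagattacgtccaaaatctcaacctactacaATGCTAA
mt-Nd4: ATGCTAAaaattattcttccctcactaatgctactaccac
mt-Nd5: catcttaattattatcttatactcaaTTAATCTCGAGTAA
mt-Nd6: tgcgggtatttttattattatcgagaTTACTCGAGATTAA

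The last pair shows why reads of some members cannot be assigned to the mitochondrial genome with certainty. The first 60 bases of mt-Atp6 (chrM:7927-7986, plus strand) and of its annotated nuclear copy Gm10925 (chr1:24614592-24614651, minus strand) are the same, letter for letter.
mt-Atp6: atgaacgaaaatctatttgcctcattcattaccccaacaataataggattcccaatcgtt
Gm10925: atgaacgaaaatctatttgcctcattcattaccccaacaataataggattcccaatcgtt

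The 9 mitochondrial mRNAs were lower in cKO cells by the authors' size factors, with log2 fold changes of −0.97 to −0.18 and a median of −0.34, while mt-Rnr1 was slightly higher at 0.19. In all 10 genes the cKO and control values did not overlap, against backgrounds of 46.7% of listed genes with both cKO values above and 53.3% with both below the control values. The size of the decrease depended on the scaling. With relative log expression factors computed on the listed genes, which move the median of all genes by 0.191, 7 of the 9 mRNAs were called lower and mt-Co1 stood at 0.01, where 46.8% of listed genes were called higher and 42% lower. DESeq2 with refitted factors gave nearly the same fold changes (median −0.15 with either fit) but called 2 of the 9 lower, where it called 46.8% of listed genes higher and 36.3% lower. With a trend on gene length removed, 8 mRNAs were called lower, where 44.5% of listed genes were called higher and 39.4% lower. The direction turned in most mRNAs when the GC trend was removed: 0 were called lower and 7 higher, and mt-Rnr1 stood at 1.19. Of all listed genes 39.7% were then called higher and 30.4% lower. mt-Nd4l alone among the mRNAs stayed below 0, at −0.32. The members have a GC content of 34.1 to 41.1%, against a median of 49.4% over the nuclear listed genes, and the trend reads −1.11 to −0.65 at their GC content.

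**Figure D1:**
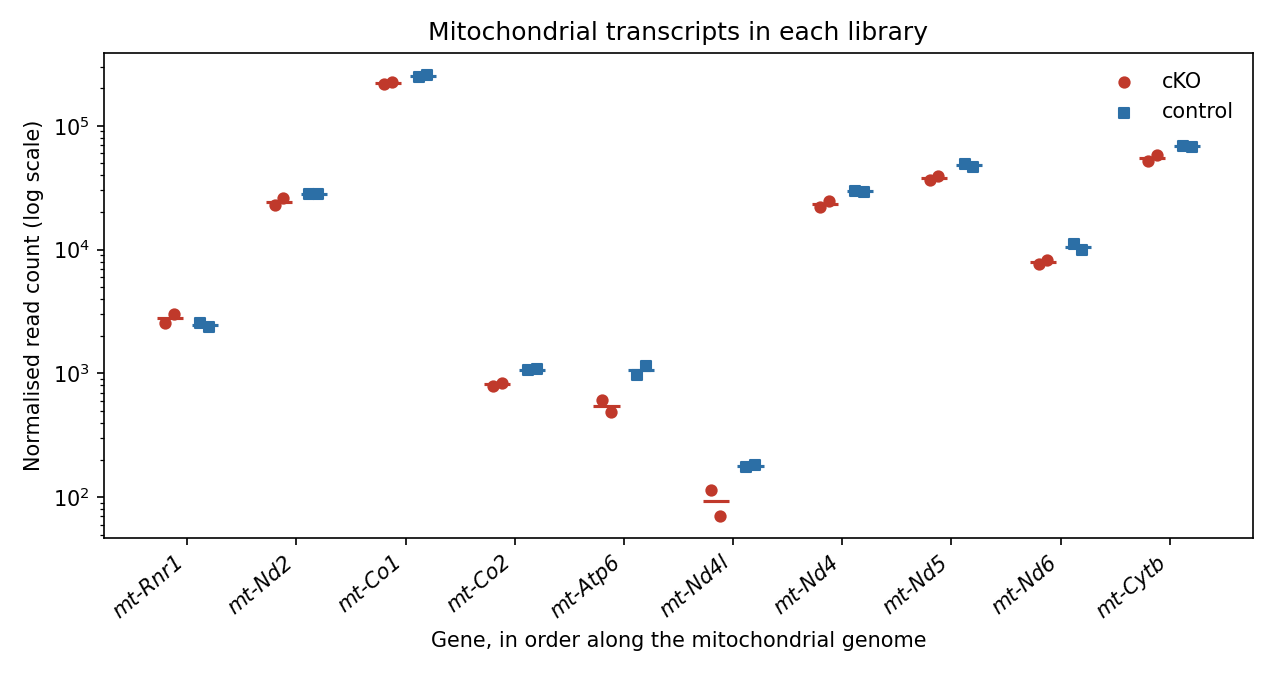
Normalised read count (log axis) of each of the 10 mitochondrial transcripts in the cKO libraries and the control libraries, in order along the genome, with points for libraries and bars for means. The cKO points lie above the control points at mt-Rnr1 and below them at the other 9 genes.

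**Figure D2:**
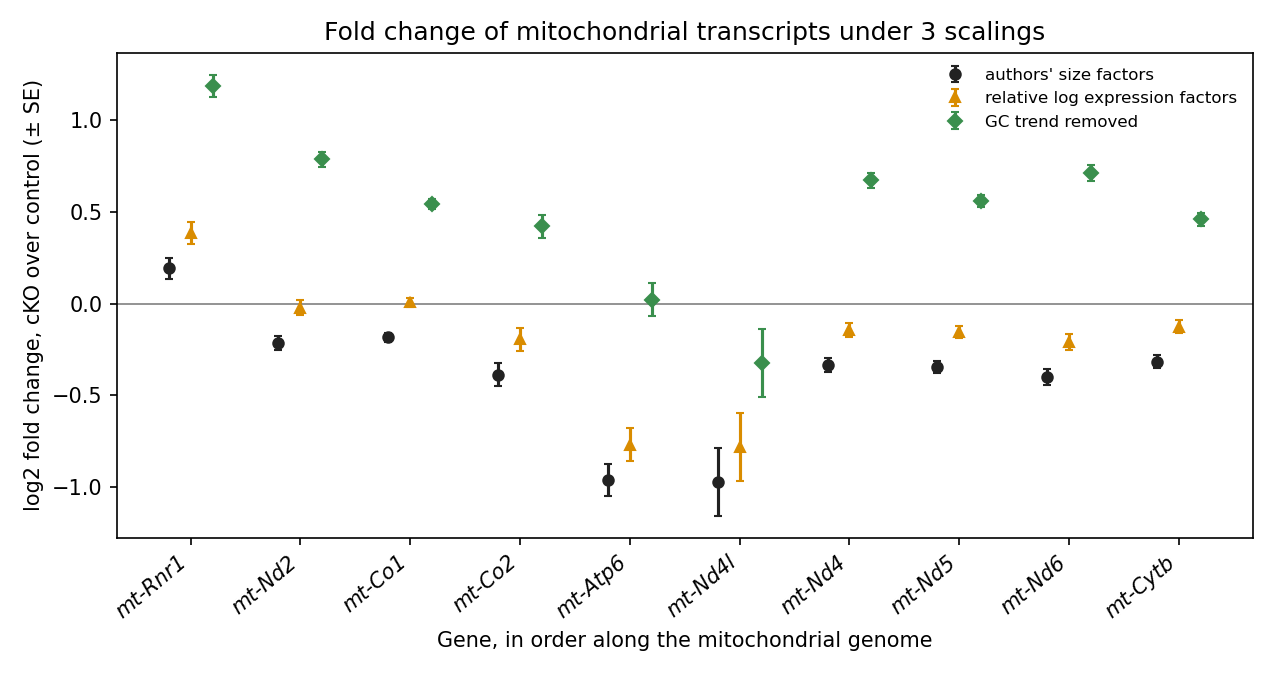
Log2 fold change of cKO over control (points) with its SE (bars) for each transcript under the authors' size factors, relative log expression factors and removal of the GC trend. The 9 mRNAs lie between −0.97 and −0.18 with the authors' factors, and 8 of them lie above 0 once the GC trend is removed.

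mt-Rnr1 (chrM:70-1024, plus strand) was read at 2575 and 3045 normalised counts in cKO cells and at 2552 and 2355 in control cells. The lower cKO library exceeded the higher control library by a narrow margin. The means were 2810 ± 332 in cKO cells and 2453 ± 139 in control cells (SD, n = 2 each), that is, 0.19 ± 0.06 higher on the log2 scale (SE; limma, adjusted p = 0.00863). That SE draws on the spread of other listed genes. Without the variance trend it was 0.10 (limma, adjusted p = 0.318). The authors' deposited table gives an adjusted p of 0.0417 for the same gene. The call rested on single libraries. Without cKO replicate 2 the log2 fold change was 0.07 (limma, adjusted p = 0.457), and without control replicate 2 it was 0.13 (limma, adjusted p = 0.0876). With a trend on gene length removed it was −0.017. Over all alternatives the adjusted p lay between 1.57e-14 and 1. Fewer cells of a type and less RNA per cell cannot be told apart in these bulk libraries, here or for the genes below.

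Mitochondrial ribosomal RNAs carry only short tails of adenines. The labels name total RNA and a standard library preparation and do not say whether polyadenylated RNA was selected. Per kb of gene, mt-Rnr1 stood at 2756 normalised reads (mean of 4 libraries), below 6 of the 9 mRNAs. Among all listed genes it held rank 295 by level per kb. Neighbours in that order were Id1, an inhibitor of helix-loop-helix factors, at 2774 per kb, Rps27rt, a copy of a ribosomal protein gene whose reads may be shared with its parent, at 2715, and Chmp2a, of the ESCRT machinery, at 2706. These levels lie closer together than the libraries of mt-Rnr1 do.

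By level per kb, as means of 4 libraries, the members ran from mt-Co1 at 153916 normalised reads through mt-Cytb at 53889, mt-Nd2 at 25315, mt-Nd5 at 23432, mt-Nd4 at 19192 and mt-Nd6 at 17738. Below mt-Rnr1 came mt-Co2 at 1376, mt-Atp6 at 1181 and mt-Nd4l at 458. The ranges over the libraries overlapped between neighbours from mt-Nd2 down to mt-Nd6, and between mt-Co2 and mt-Atp6. They did not overlap at the other steps.

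5 members code for subunits of complex I, the NADH dehydrogenase, and all lie in its proton-pumping membrane arm. mt-Nd2 (chrM:3914-4951) had 22828 and 25893 normalised counts in cKO cells and 28301 and 28087 in control cells. Its cKO libraries differed from each other more than its control libraries did, and both lay below them. The log2 fold change was −0.21 ± 0.04 (SE; limma, adjusted p = 5.09e-05), and it passed no longer with the variance trend left out (adjusted p = 0.111) or with relative log expression factors, where it was −0.02. Without cKO replicate 1 it was −0.12.

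mt-Nd4 (chrM:10167-11544) had 21997 and 24802 normalised counts in cKO cells and 29928 and 29057 in control cells. mt-Nd5 (chrM:11742-13565) had 36348 and 38975 in cKO cells and 49228 and 46411 in control cells. The cKO libraries of both genes lay well below the control libraries, and both log2 fold changes were −0.34 (limma, adjusted p = 6.23e-08 for mt-Nd4 and 3.53e-09 for mt-Nd5). 

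mt-Nd6 (chrM:13552-14070) is the only member on the minus strand, transcribed from the other promoter. It had 7593 and 8266 normalised counts in cKO cells and 11035 and 9931 in control cells. The log2 fold change was −0.40 ± 0.04 (SE; limma, adjusted p = 2.40e-08). The log2 ratio of mt-Nd6 to mt-Nd5 within a library was −2.26 and −2.24 in cKO cells and −2.16 and −2.22 in control cells. The difference of −0.06 between genotypes was small beside the fold change of either gene, and it lay between −0.091 and −0.024 when a control library was left out.

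mt-Nd4l (chrM:9877-10173), the shortest member with 297 bases, was also the lowest. It had 115 and 71.2 normalised counts in cKO cells and 175 and 182 in control cells. The log2 fold change was −0.97 ± 0.18 (SE; limma, adjusted p = 7.71e-05), with the largest SE among the members. It was −0.63 without cKO replicate 2 and −1.31 without cKO replicate 1. It missed the threshold with the GC trend removed (−0.32, limma adjusted p = 0.282) and with the length trend removed (−0.47, limma adjusted p = 0.0544). Within 10% of its length lie 0 nuclear listed genes, so the length trend there rests on genes of other lengths. The log2 ratio of mt-Nd4l to mt-Nd4, which overlap on the same strand, was −7.58 and −8.44 in cKO cells and −7.42 and −7.32 in control cells. Whether the 2 genes were read from separate RNAs was not tested.

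The single mitochondrial subunit of complex III is cytochrome b, from mt-Cytb (chrM:14145-15288). It had 51995 and 57851 normalised counts in cKO cells and 69157 and 67595 in control cells. The means were 54923 ± 4141 in cKO cells and 68376 ± 1104 in control cells (SD, n = 2 each), a log2 difference of −0.32 ± 0.04 (SE; limma, adjusted p = 3.42e-08).

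Complex IV, cytochrome c oxidase, takes its catalytic core from the mitochondrial genome. mt-Co1 (chrM:5328-6872), which codes for the subunit that reduces oxygen, had 219105 and 226077 normalised counts in cKO cells and 249407 and 256609 in control cells. It ranked first of all listed genes by level per kb, and it had the smallest decrease among the mRNAs, at −0.18 ± 0.03 on the log2 scale (SE; limma, adjusted p = 2.34e-06). It made up 60.2 and 58.5% of the mitochondrial reads in cKO cells and 56.5 and 58.0% in control cells.

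mt-Co2 (chrM:7013-7696) codes for the subunit that takes electrons from cytochrome c. It had 790 and 841 normalised counts in cKO cells and 1057 and 1076 in control cells, far less than mt-Co1 in both. The log2 fold change was −0.39 ± 0.06 (SE; limma, adjusted p = 1.63e-05). mt-Atp6 (chrM:7927-8607), the proton channel subunit of ATP synthase (complex V), had 606 and 487 in cKO cells and 976 and 1147 in control cells. Its means were 546 ± 84.4 in cKO cells and 1062 ± 121 in control cells (SD, n = 2 each), and its log2 fold change was −0.96 ± 0.09 (SE; limma, adjusted p = 1.84e-09).

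The 3 lowest mRNAs were those with a near-complete annotated nuclear copy. Of the 100-base windows of mt-Co2, mt-Atp6 and mt-Nd4l, 99.5, 99.5 and 98.5% also occur in a nuclear transcript, all of them in unprocessed pseudogenes of a block on the minus strand of chromosome 1. mt-Atp6 matched Gm10925 (chr1:24613974-24614651) at 678 of 678 aligned bases. mt-Co2 matched Gm28661 (chr1:24614885-24615565) at 681 of 681, and mt-Nd4l matched Gm10222 (chr1:24612407-24612700) at 294 of 294. These 3 mRNAs stood at 458 to 1376 normalised reads per kb, and the other 6 at 17738 to 153916. A read that matches both places is dropped, split or assigned at random depending on the counting settings, which the sources used here do not give.

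The remaining members had fewer such windows. The shares were 60.8% in mt-Nd4, 30.8% in mt-Co1, 3.2% in mt-Nd2 and 0% in mt-Nd5, mt-Nd6, mt-Cytb and mt-Rnr1. The 6 mRNAs outside that group of 3 had log2 fold changes of −0.40 to −0.18. The 2 members with the strongest decrease, mt-Atp6 and mt-Nd4l, both have near-complete copies, and the part of shared reads in that was not tested.

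Gm28439 (chr1:24611535-24612410), a copy of 876 bases of mt-Nd4 with 876 of 876 aligned bases the same, is the one copy that is listed itself. It had 171 and 141 normalised counts in cKO cells and 244 and 250 in control cells. Its log2 fold change was −0.66 ± 0.13 (SE; limma, adjusted p = 0.000134), while mt-Nd4 stood at −0.34. Reads listed under either name may stem from the other.

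**Figure D3:**
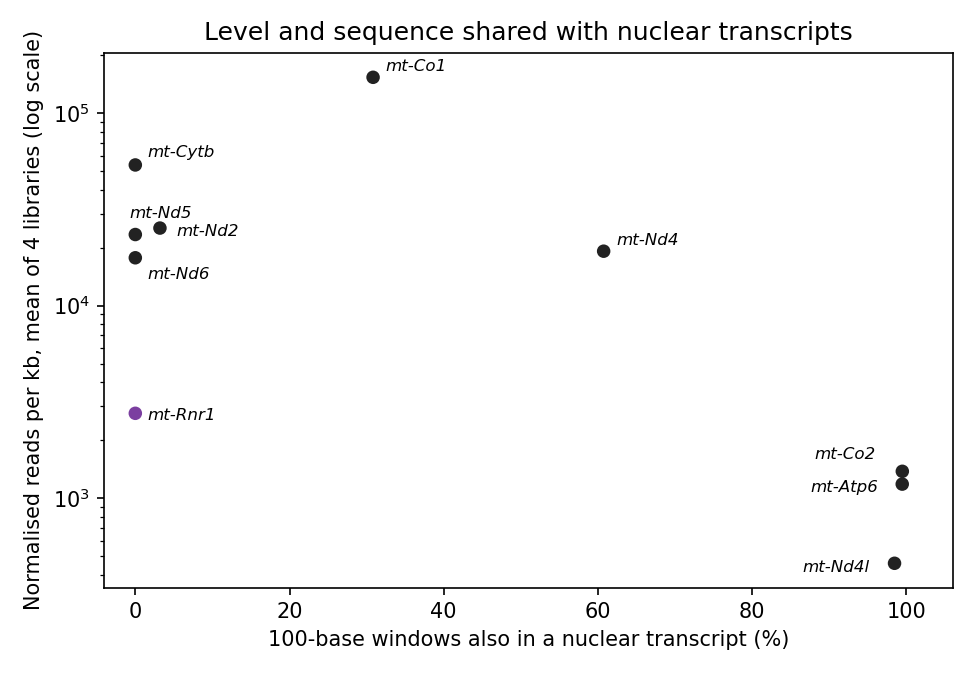
Normalised reads per kb (mean of 4 libraries, log axis) of each transcript against the share of its 100-base windows that also occur in an annotated nuclear transcript. mt-Co2, mt-Atp6 and mt-Nd4l sit at the lower right with 98.5 to 99.5% shared windows and 458 to 1376 reads per kb.

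Together the members took 2.22 and 2.38% of the reads in listed genes in cKO cells and 2.59 and 2.59% in control cells. The Wilson 95% intervals were 2.21 to 2.23% and 2.37 to 2.39% for the cKO libraries, and 2.58 to 2.59% and 2.58 to 2.60% for the control libraries. They cover counting error only. Both cKO shares lay below both control shares. mt-Rnr1 took 0.708 and 0.788% of the mitochondrial reads in cKO cells and 0.578 and 0.532% in control cells.

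Ratios within a library do not depend on a size factor. The log2 ratio of mt-Rnr1 to the summed 9 mRNAs was −7.13 and −6.98 in cKO cells and −7.43 and −7.55 in control cells. The cKO ratios were higher by 0.43, and by 0.35 to 0.51 when any 1 library was left out. An exact two-sided permutation test gave p = 0.333, the smallest that 2 against 2 libraries allow. That the groups separate followed from the single genes, mt-Rnr1 being higher and each of the 9 mRNAs lower in both cKO libraries. The difference was 0.51 without mt-Co1 in the sum, and 0.50 with only mt-Nd2, mt-Nd5, mt-Nd6 and mt-Cytb, which share 0 to 3.2% of their 100-base windows with nuclear transcripts. Within a library mt-Atp6 was also lower relative to mt-Co2, with a log2 difference of −0.58. That difference was −0.37 without cKO replicate 2 and −0.78 without cKO replicate 1. Both genes have near-complete nuclear copies, and mt-Atp6 overlaps mt-Atp8, which is not listed, over 43 bases. The part of shared reads in this difference was not tested.

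The members differed among themselves in pattern. mt-Nd4 and mt-Cytb were the closest pair, with a root mean square difference of 0.0119 between their centred log2 values over 4 libraries. mt-Nd5 lay within 0.0300 of both. mt-Rnr1 was farthest from mt-Nd4l (0.671) and mt-Atp6 (0.622). In cKO replicate 2 the values exceeded those of cKO replicate 1 for 8 of the 10 members, the exceptions being mt-Atp6 and mt-Nd4l.

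The mRNAs of nuclear genes of the respiratory chain and ATP synthase were read in the same libraries. Besides the complexes of the members they cover complex II, with 4 genes listed and no member. They also cover Atpif1, an inhibitor of ATP synthase. Of the 81 mRNAs, all 65 that are listed were called higher in cKO cells, where 46.7% of all listed genes were. Their median log2 fold change was 0.32, against −0.22 over all listed genes. With the GC trend removed, 46 of the 65 were called higher and 1 lower, against 39.7% and 30.4% of all listed genes. The median of the 65 was then 0.27, while that of the 9 mitochondrial mRNAs was 0.54. With the length trend removed, 40 of the 65 were called higher, against 44.5% of all listed genes. The median of the 65 was then 0.16, and that of the mitochondrial mRNAs was −0.48. The comparisons of mitochondrial with nuclear mRNAs in the next paragraph are on the authors' counts, with no such trend removed.

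The log2 ratio of the mitochondrial to the listed nuclear mRNAs of complex I was 0.17 and 0.32 in cKO cells and 0.90 and 0.89 in control cells, a difference of −0.65. For complex III, mt-Cytb against 8 nuclear mRNAs gave 0.31 and 0.46 in cKO cells and 1.07 and 1.05 in control cells, a difference of −0.67. For complex IV, mt-Co1 and mt-Co2 against 11 nuclear mRNAs gave 1.68 and 1.71 in cKO cells and 2.11 and 2.21 in control cells, a difference of −0.47. In each complex both cKO ratios lay below both control ratios. That order followed from the single genes and is no further evidence. Each mitochondrial mRNA was lower, and each listed nuclear one higher, in both cKO libraries than in both control libraries. For complex V, mt-Atp6 against 13 nuclear mRNAs, Atpif1 among them, differed by −1.23, with the reads of mt-Atp6 shared with a nuclear copy. Each exact two-sided permutation test gave p = 0.333, again the smallest possible.

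**Figure D4:**
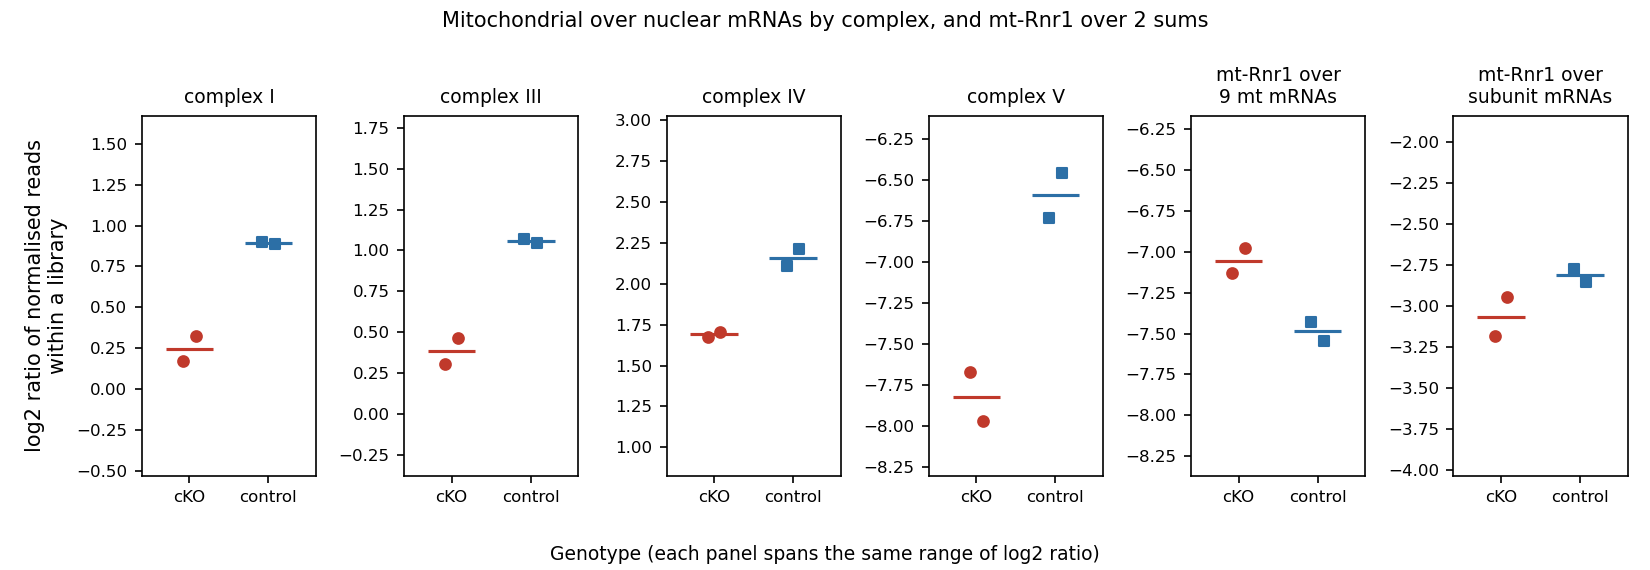
Log2 ratio of normalised reads within each library (points) for the mitochondrial over the nuclear mRNAs of each complex and for mt-Rnr1 over 2 sums, with cKO left of control in each panel and the same range of log2 ratio in every panel. The mitochondrial over nuclear ratios are lower in both cKO libraries, with log2 differences of −1.23 to −0.47. The ratio of mt-Rnr1 to the 9 mRNAs is higher in both. These separations follow from the directions of the single genes.

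The nuclear genes that act on mitochondrial RNA moved in both directions. Of the transcription list, 3 of 9 genes are listed, with 2 higher and 1 lower, against 46.7% and 53.3% of all listed genes. Polrmt, the mitochondrial RNA polymerase, averaged 663 ± 31.9 normalised counts in cKO cells and 538 ± 2.5 in control cells (SD, n = 2 each; log2 fold change 0.30, against −0.03 after removal of the GC trend). Mrpl12, a ribosomal protein that also binds this polymerase, averaged 1244 ± 8.0 in cKO cells and 851 ± 20.6 in control cells (log2 fold change 0.55). Mterf3, a factor known in mice as a repressor of mitochondrial transcription, stood at −0.47, and at 0.12 with the GC trend removed.

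For RNA processing and decay, 7 of 21 genes are listed, of which 3 were higher and 4 lower. That split is close to the 46.7% higher and 53.3% lower over all listed genes. The median log2 fold change of the 7 was −0.40. It turned to 0.13 once the GC trend was removed. Then 3 were called higher and 1 lower, against 39.7% and 30.4% of all listed genes. Hsd17b10, a subunit of the RNase that cuts the 5′ ends of mitochondrial transfer RNAs, averaged 1699 ± 116 normalised counts in cKO cells and 1196 ± 74.0 in control cells (log2 fold change 0.51). Grsf1, a binding protein of mitochondrial RNA granules, averaged 1884 ± 40.2 in cKO cells and 2480 ± 15.6 in control cells (log2 fold change −0.40). Trnt1, which adds CCA to transfer RNAs, stood at −0.56, Fastkd2, which binds the 16S RNA, at −0.52, and Pnpt1, the polynucleotide phosphorylase of the organelle, at −0.48. These last 3 were above 0 with the GC trend removed, at 0.13, 0.04 and 0.26.

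The listed mRNAs for proteins that assemble with mt-Rnr1 into the small ribosomal subunit were higher. Of 31 such genes 18 are listed, and 18 were called higher and 0 lower, against 46.7% and 53.3% of all listed genes. Since 100% of listed genes pass limma, only the direction could vary. The median log2 fold change of the 18 was 0.38. Removal of the GC trend left 10 called higher, against 39.7% of all listed genes. Removal of the length trend left 12, against 44.5%. Mrps6 had the largest change, with 3917 ± 4.4 normalised counts in cKO cells and 1961 ± 33.6 in control cells (SD, n = 2 each; log2 fold change 1.00). Mrps14, Mrps24, Mrps27 and Mrps16 followed with log2 fold changes of 0.50, 0.47, 0.47 and 0.44. The log2 ratio of mt-Rnr1 to the summed 18 mRNAs was −3.18 and −2.95 in cKO cells and −2.77 and −2.85 in control cells, a difference of −0.25 (exact two-sided permutation p = 0.333). The difference was −0.13 without cKO replicate 1 and −0.37 without cKO replicate 2. On the authors' counts this ratio differed from control in the opposite sense to the ratio of mt-Rnr1 to the mitochondrial mRNAs. That direction depended on the processing. With the GC trend removed mt-Rnr1 stood at 1.19, above the median of 0.25 of the 18 mRNAs. With the length trend removed mt-Rnr1 stood at −0.017, below their median of 0.24.

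A list of 17 genes was meant to cover modification of the 12S RNA and assembly of the small subunit, but the 3 that are listed are not known for steps specific to either. They are Mpv17l2, a general assembly factor of the mitochondrial ribosome, Mcat, the malonyl transferase of mitochondrial fatty acid synthesis, and Ngrn, which binds the 16S RNA. All 3 were called higher, with log2 fold changes of 0.43, 0.33 and 0.28, but removal of the GC trend left 0 called, and removal of the length trend left 1. Of 13 genes for the large subunit RNA, 0 are listed. Of 51 genes for large subunit proteins 25 are listed, with 23 higher and 2 lower and a median of 0.35. Removal of the GC trend left 13 called higher and 0 lower. Of 16 translation factors 6 are listed, with 4 higher and 2 lower, and 2 higher and 0 lower with the GC trend removed. DNA maintenance had 7 of 21 genes listed, with 3 higher and 4 lower and a median of −0.30. That median moved to −0.016 on removal of the GC trend and to 0.02 on removal of the length trend. Over all listed genes 46.7% were higher and 53.3% lower, close to the split in DNA maintenance. With the GC trend removed 39.7% of all listed genes were called higher and 30.4% lower. With the length trend removed these shares were 44.5% and 39.4%.

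Of 11 regulators of mitochondrial biogenesis 5 are listed, with 1 higher and 4 lower. Sirt1, a deacetylase that acts on PGC-1alpha, averaged 199 ± 54.7 normalised counts in cKO cells and 390 ± 17.8 in control cells (SD, n = 2 each; log2 fold change −0.99). Gabpa and Gabpb1, the subunits of the factor NRF-2, stood at −0.62 and −0.56, Gabpa being at 0.01 with the GC trend removed. Yy1, a transcription factor, stood at −0.24 and at 0.02 with the length trend removed. Sirt3, the mitochondrial deacetylase, was the 1 that was higher, at 0.40. Over all of these nuclear lists, 138 of 270 genes are listed, 121 of them called higher and 17 lower. The shares over all listed genes were 46.7% and 53.3%. The median log2 fold change of the 138 was 0.32.

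**Figure D5:**
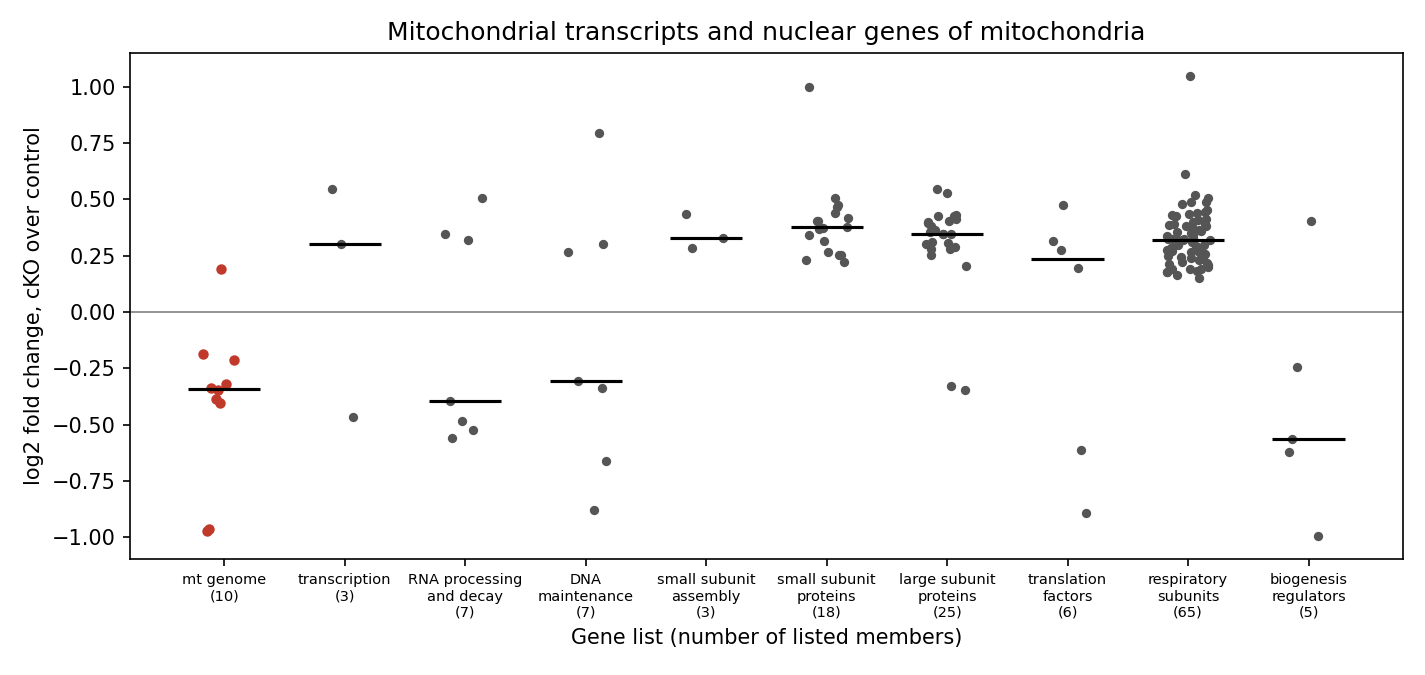
Log2 fold change of cKO over control (points) for the 10 mitochondrial transcripts and for the listed members of each nuclear list, with bars at medians. The 9 mitochondrial mRNAs lie below 0, and all 65 nuclear genes of the respiratory list lie above 0. The lists for transcription, RNA processing and DNA maintenance hold points on both sides.

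The genes whose pattern over the 4 libraries was most like that of mt-Rnr1 were Cox7c, a nuclear subunit of complex IV, and Ndufv2, a nuclear subunit of complex I, with root mean square differences of 0.0278 and 0.0314 between centred log2 values. Cox7c had 4944 and 5535 normalised counts in cKO cells and 4781 and 4397 in control cells. Ndufv2 had 3272 and 3646 in cKO cells and 3165 and 2950 in control cells. Both were picked for likeness over these same libraries, so their gaps between libraries resemble those of mt-Rnr1 by choice. Sec22b, Nip7, Rpl11, Hspe1, Ranbp1, Rpl35a, Anp32a and Ndufs6 followed at 0.0414 to 0.0520. Of 6939 other genes, 297 (4.28%) lay within 0.1, so many genes share this pattern over 4 libraries.

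Markers of several cell types differed between the genotypes, as every listed gene did. Over all listed genes 46.7% were higher and 53.3% lower in cKO cells. All 8 listed of 10 markers of mature oligodendrocytes were lower in cKO cells, and their summed level was 62131 and 64381 normalised counts in cKO cells and 309323 and 310022 in control cells. All 10 markers of newly formed oligodendrocytes were lower too, with sums of 76924 and 79790 in cKO cells and 246384 and 251204 in control cells. Of 10 astrocyte markers 9 are listed, with 7 higher and 2 lower, and sums of 764043 and 757260 in cKO cells and 506319 and 507134 in control cells. Gfap made up most of these sums, with means of 555415 in cKO cells and 351796 in control cells. Of 10 pericyte and fibroblast markers 8 are listed and all were higher, with sums of 12234 and 11796 in cKO cells and 3962 and 3778 in control cells.

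For the other markers, 8 of 9 listed precursor markers were lower, 8 of 10 listed neuronal markers were higher, and all 5 listed microglial markers were higher. The shares over all listed genes were 46.7% higher and 53.3% lower. The summed neuronal markers ran the other way from their count, with 17749 and 17532 normalised counts in cKO cells and 18610 and 18926 in control cells. The largest part of that sum was Map2, which was lower, with means of 7378 in cKO cells and 10552 in control cells. Endothelial markers had 4 of 10 listed, with 2 higher and 2 lower. No listed marker was at 0 in any library. Of 6 RNAs that stay mostly in the nucleus, such as Malat1, 5 are listed and all were lower. Their median log2 fold change was −1.69, and their sums were 5592 and 5382 normalised counts in cKO cells and 16217 and 15738 in control cells. Of 29 RNAs without a long poly(A) tail, chiefly histone RNAs, 4 are listed, with 1 higher and 3 lower. Olig1, which carries the Cre allele in cKO cells, averaged 6844 ± 574 in cKO cells and 11990 ± 64.6 in control cells (SD, n = 2 each). The part of cell types and of RNA quality in the values of the mitochondrial transcripts was not tested.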

How the data were processed

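The authors deposited, per the file headers, a signal for every listed gene (read counts over each library's own size factor), log2 fold changes, p-values, adjusted p-values and gene lengths. The submitters' processing notes name DESeq2 and the builds mm10 and GRCm38. The aligner, counting tool, strand setting and treatment of reads with several matches are not given in the sources used here. In each library 100% of values were whole multiples of 1 read within 0.01 read, so whole reads were recovered, a read being worth 0.816 and 1.19 in cKO replicates 1 and 2 and 1.0 and 1.02 in control replicates 1 and 2.

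The table as analysed here lists 6940 genes, and the authors' adjusted p-values imply 17347 tested genes, over which p-values were adjusted here (Benjamini-Hochberg). limma 3.58.1 (R 4.3.3) was fitted to log2(value + 1), which understates changes of low genes, with genotype as the only term, a variance trend and a minimum of 1 in 2 libraries. Its variances were pooled over genes chosen for their difference, so p-values may be too low. Alternatives used edgeR 4.0.16, DESeq2 1.42.0, other scalings, pseudocounts of 0.5 and 10, other filters, removal of loess trends on GC content or length, a replicate block, and each library left out. Adjusted p-values in the report are limma's, except those named as the authors' and the range over all alternatives, which spans every tool. Counts of members and list genes called rest on limma's, except where DESeq2 is named.

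The members, gene lists and tests were chosen with earlier results of these data known. Named nuclear genes are at most 5 of each list, those with the largest change. Of the listed genes nearest to mt-Rnr1 in level per kb, 1 is not reported here. Nuclear copies were sought as exact windows of 50 and 100 bases in annotated transcripts of GENCODE vM21 only. Likeness of pattern is the root mean square difference of centred log2 values.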

Additional observations from a re-analysis of the deposited data

How the results depend on the processing

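The calls of mt-Rnr1 and the counts of called members were the same with pseudocounts of 0.5 or 10, other filters, edgeR with either scaling (the authors' factors were added after seeing the data), scaling to the total of listed reads and adjustment over the listed genes alone. mt-Rnr1 lay at 0.071 to 0.31 with a library left out, at 0.19 but past no threshold without the variance trend (adjusted p = 0.318, limma), and at −0.017 with the length trend removed. Removing that trend also turned Cox7c to −0.046, Ndufv2 to −0.0082, Chmp2a to −0.036 and Yy1 to 0.021. Within 10% of the length of mt-Nd4l lie 0 nuclear listed genes. Relative log expression factors and DESeq2 both turned mt-Co1 to 0.0064.

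Removing the GC trend turned mt-Nd2 to 0.79, mt-Co1 to 0.54, mt-Co2 to 0.42, mt-Atp6 to 0.021, mt-Nd4 to 0.67, mt-Nd5 to 0.56, mt-Nd6 to 0.71, mt-Cytb to 0.46, Gm28439 to 0.42, Chmp2a to −0.0034, Mterf3 to 0.12, Polrmt to −0.028, Trnt1 to 0.13, Fastkd2 to 0.044, Pnpt1 to 0.26 and Gabpa to 0.0074. The cause was not tested. As few as 23 nuclear listed genes lie within 1 GC point of a member. Listed genes called lower numbered 2109 then, against 3696 as reported. Mitochondrial mRNAs called lower numbered 2 with DESeq2 and 0 with the GC trend removed, against 9. The shares of all listed genes called lower under these fits were 36.3, 30.4 and 53.3%. Of 138 list genes, 80 were called higher with the length trend removed and 78 with the GC trend removed, against 121 (44.5, 39.7 and 46.7% of all listed genes under these fits). Those called lower numbered 9 with DESeq2 and 6 with the GC trend removed, against 17 (36.3, 30.4 and 53.3% of all listed genes).

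The replicate numbers did not pair the libraries: deviations of libraries with the same number had a correlation of 0.0133 over 6940 genes. With a replicate block mt-Rnr1 stayed at 0.19 (limma, adjusted p = 0.000285), 9 mRNAs were called lower, and 3242 and 3696 listed genes were called higher and lower.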
